A study of Mus musculus with 9 samples.

Results

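The response described here is that of adipogenic bone marrow progenitors to interferon-γ (IFNγ), read within pairs of libraries that carry the same number. The members are the 6 adipogenic libraries among the 9 of the series, taken by their titles. The treated cultures, numbered 4, 5 and 6, were each set against the untreated culture of that number. Both groups used here are stromal cells from the marrow of adult C57Bl/6 mice with an irtTA-GBD*-TAg transgene, whose large T antigen is switched on by dexamethasone together with doxycycline. The cells were flushed from femora and tibiae, conditionally immortalised in that way and cloned, and treated and untreated libraries share this history, including 3 days without either inducer before RNA was taken. Treated cells received 10 ng/ml IFNγ for 3 days, untreated cells none. The series text calls the 3 libraries of a group biological replicates, and the labels do not say whether 4, 5 and 6 are separate clones, cultures or animals, so the p values speak of the spread between these libraries only. Of the 24186 genes in the count table, 14705 had enough counts to be tested.

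IFNγ binds a receptor made of Ifngr1 and Ifngr2 chains, which activates the kinases Jak1 and Jak2. The signal reaches GAS elements in promoters and switches on a first set of genes, among them the transcription factor Irf1, which acts on ISRE elements in turn. Marrow stromal progenitors give rise to fat and bone cells, lay down collagen-rich matrix and feed blood-forming cells with factors such as Cxcl12 and Kitl. The induced side of the response is well known, and the values below turn mainly to the genes that were lower after IFNγ and to changes too small to stand out from the differences between cultures.

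Deposited counts summed to 32834051 to 38074320 per library. Levels are given as CPM, counts scaled to the size of the library, and a gene listed at 0 could have reached 0.0770 to 0.0890 CPM, the level of 3 counts. Stromal markers were present, with summed levels of 7570 to 10460 CPM untreated and 5856 to 9319 CPM with IFNγ, although Thy1 and Lepr were at or near 0. The sums hide opposite moves in edgeR. Of 11 stromal markers tested, 2 fell, Pdgfrb (log2 fold change −0.69, adjusted p = 0.0274) and Cxcl12 (−2.47, adjusted p = 0.021). Ly6a rose (3.85, adjusted p = 0.00526). Ptprc, the pan-leukocyte marker, did not exceed 0.103 CPM in any library, and none of the 4 haematopoietic markers tested passed in edgeR (3 had an unadjusted p under 0.05, limma-voom called 1 and DESeq2 called 0). The haematopoietic markers summed to 13.2 to 31.5 CPM untreated and 12.6 to 21.9 CPM with IFNγ. Most of it was Cd68 and Cd14, which reached 19.09 and 16.82 CPM. Of the mature fat markers, whose summed level was 63.7 to 569 CPM untreated and 79.6 to 336 CPM with IFNγ, Adipoq and Plin1 were at or near 0, while Fabp4 and Lpl reached 240.4 and 298.9 CPM. Mature osteoblast markers summed to 227 to 1417 CPM untreated and 259 to 417 CPM with IFNγ, most of it Spp1, which did not pass (log2 fold change −1.06, adjusted p = 0.169). The endothelial markers Pecam1, Cdh5 and Emcn were at or near 0, while the receptor Kdr, of the endothelial list, rose (log2 fold change 1.67, adjusted p = 0.00663). Of 13 interferon check genes 12 rose, against 8.61% of all genes tested. Irf1 stood at 47.1, 52.01 and 66.3 CPM in untreated libraries 4, 5 and 6 and at 636, 903 and 879 CPM in treated libraries 4, 5 and 6, the order in which every set of 3 values is given below.

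Promoter sequence is shown for 5 genes that stand for the groups described below. Each stretch lies upstream of the start in the RefSeq promoter table (GRCm38.p6), read 5′ to 3′ on the strand of the gene, with the motif in capitals. The genes were chosen after their values were seen, from those whose promoter holds the motif. Irf1, with GAS (TTCNNNGAA), lies at chr11:53769889-53769967 on the plus strand, and Ctss, the lysosomal protease cathepsin S, with ISRE (GAAA, any 2 bases, GAAA), at chr3:95526730-95526785 on the plus strand. Both stand for the induced genes.
Irf1: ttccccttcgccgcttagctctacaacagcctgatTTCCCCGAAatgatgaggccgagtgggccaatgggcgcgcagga
Ctss: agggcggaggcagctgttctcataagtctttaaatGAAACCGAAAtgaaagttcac
Myl9, a myosin light chain with a CArG box, lies at chr2:156775268-156775347 on the plus strand, and Mfap2, a microfibril protein with the TEAD motif (GGAATG), at chr4:141010213-141010288 on the plus strand. Both stand for the repressed genes.
Myl9: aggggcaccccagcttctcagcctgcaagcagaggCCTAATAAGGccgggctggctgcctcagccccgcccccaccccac
Mfap2: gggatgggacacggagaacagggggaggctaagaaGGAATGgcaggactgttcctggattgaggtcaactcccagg
Top2a, the DNA topoisomerase of dividing cells, holds the cell cycle element CHR (TTTGAA) at chr11:99024328-99024403 on the minus strand and again at chr11:99024190-99024247, where it is read as TTCAAA. It stands for the induced cell cycle genes.
Top2a, distal: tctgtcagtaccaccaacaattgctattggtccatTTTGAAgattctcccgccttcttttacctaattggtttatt
Top2a, proximal: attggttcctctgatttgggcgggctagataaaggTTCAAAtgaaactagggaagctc

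Across the promoters that could be matched, 9359 of the 14705 genes tested, both strands of 300 bases were searched, from 250 before to 50 after the start, and a promoter was counted under each motif it held, with overlaps between motifs allowed. GAS was in 5.85% of 1060 promoters of genes that fell, 9.92% of 1069 promoters of genes that rose and 6.86% of all 12003 promoters of genes tested. ISRE was in 1.51%, 9.73% and 3.07% in the same order. The TEAD motif was in 15.0%, 11.8% and 12.4%, and the CArG box in 1.98%, 1.22% and 1.38%. AP-1 (TGANTCA), bound by Fos and Jun proteins, was in 5.09%, 7.58% and 5.27%, and the E2F motif (TTTGGCGC or TTTCGCGC) in 0.566%, 3.18% and 1.49%. CHR was in 10.9%, 17.6% and 11.8%, while the CCAAT box (CCAAT) was in 37.5%, 39.3% and 37.6%. The gap between the genes that rose and all genes was thus widest in relative size for ISRE, E2F and CHR among the motifs searched. A match to such letters is no evidence of binding.

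IFNγ lowered 1180 genes (8.02% of those tested) and raised 1266 (8.61%) when each treated library was compared with its own partner, at an adjusted p under 0.05 in edgeR's quasi-likelihood test. Without the pairing the same 6 libraries gave 9 lower genes (0.0612%) and 169 higher ones (1.15%), all 178 of which were among the 2446 of the paired fit. The pairing therefore carried 1171 of the 1180 falls and 1097 of the 1266 rises. The 9 falls that passed both ways were Fam20a, Edn1, Itgb5, Col12a1, Scube3, Prelp, Adamts16, Ier2 and mt-Nd4, which were named after their values were seen. Every call named below passed with the pairing, and calls named below that are not among these 9 falls or the 169 rises did not pass without it. In bulk RNA, fewer cells of a type and less RNA per cell cannot be told apart.

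Untreated cultures differed from each other more than their responses did. The SD of log2 levels between the 3 untreated libraries had a median of 0.270 over all genes tested, and the SD of the log2 ratio between the 3 pairs a median of 0.196. The SD of the ratio was the smaller one for 67.1% of genes. Among genes that fell the medians were 0.461 and 0.227. Of these 1180 genes, 701 (59.4%) had overlapping treated and untreated levels, so that the fall showed only within pairs, whereas 429 of the 1266 risen genes (33.9%) overlapped. The groups stood apart downwards for 7.56% of all genes tested and upwards for 9.89%.

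**Figure D1:**
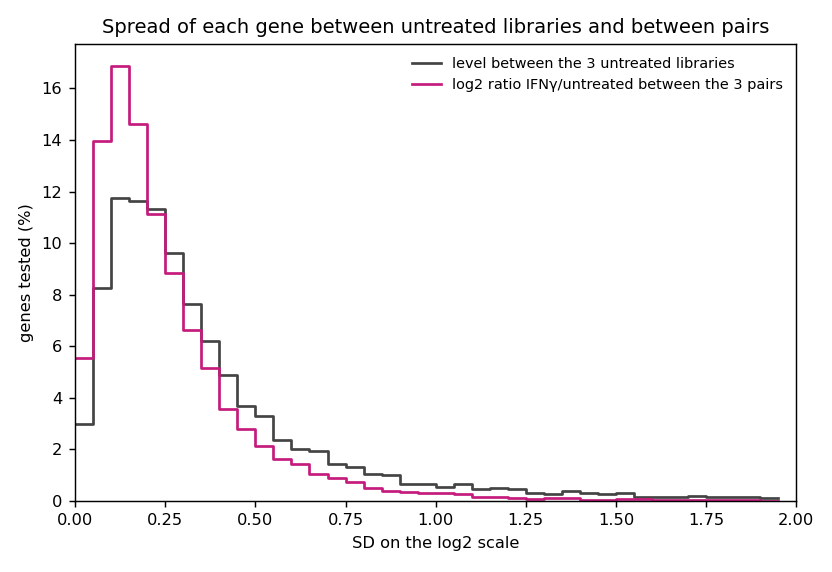
Share of the 14705 genes tested (y axis, %) by SD on the log2 scale (x axis), for levels between the 3 untreated libraries (grey) and for the log2 ratio of IFNγ to untreated between the 3 pairs (magenta). The magenta line lies further left, with a median SD of 0.196 against 0.270.

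Falls were smaller than rises. The median log2 fold change was −0.80 among genes that fell, 1.00 among genes that rose and −0.03 over all genes tested. Falls of less than 1 on the log2 scale, called moderate here, made up 726 of the 1180 falls (61.5% of them and 4.94% of all genes tested), and moderate rises 629 of the 1266 (49.7% and 4.28%). Only 3 genes fell by more than 4 on the log2 scale, against 105 that rose by as much, and 126 fell by more than 2, against 292. The median untreated level was 33.1 CPM for genes that fell, 21.9 CPM for genes that rose and 24.6 CPM for all. With IFNγ it was 19.7 CPM for genes that fell and 49.4 CPM for genes that rose. A mean of at least 100 CPM untreated was seen for 21.7% of the genes that fell, 12.01% of those that rose and 16.1% of all. A gene could pass the count filter through its higher group alone, so the order of untreated levels follows in part from the direction.

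A pair that was left out of the fit gave the direction of calls that had not used it. Genes called lower from pairs 5 and 6 alone numbered 685, and of the 680 with a value in pair 4 the ratio was negative for 632 (92.9%), against 53.4% of all genes. Without pair 5 it was 652 genes, 93.0% of them lower in pair 5 against 55.1% of all, and without pair 6 it was 104 genes, 96.2% lower in pair 6 against 50.1%. For the rises, called in numbers of 877, 853 and 271, the shares were 95.6%, 98.2% and 99.3%, against 46.5%, 44.9% and 49.9% of all genes. The falls were smaller in the left-out pair than in the pairs that called them, at medians of −0.85 against −0.98, −0.73 against −1.07 and −1.13 against −1.50. So were the rises, at 1.07 against 1.09, 1.14 against 1.22 and 2.08 against 2.24. The genes had been chosen on the pairs that called them. The number of calls was lowest without pair 6. A refit below means the same model with a pair left out, with genes of low counts kept, with another scaling or estimation, or with the 3 osteogenic libraries added, and a call lost in one is named with the adjusted p it had there.

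**Figure D2:**
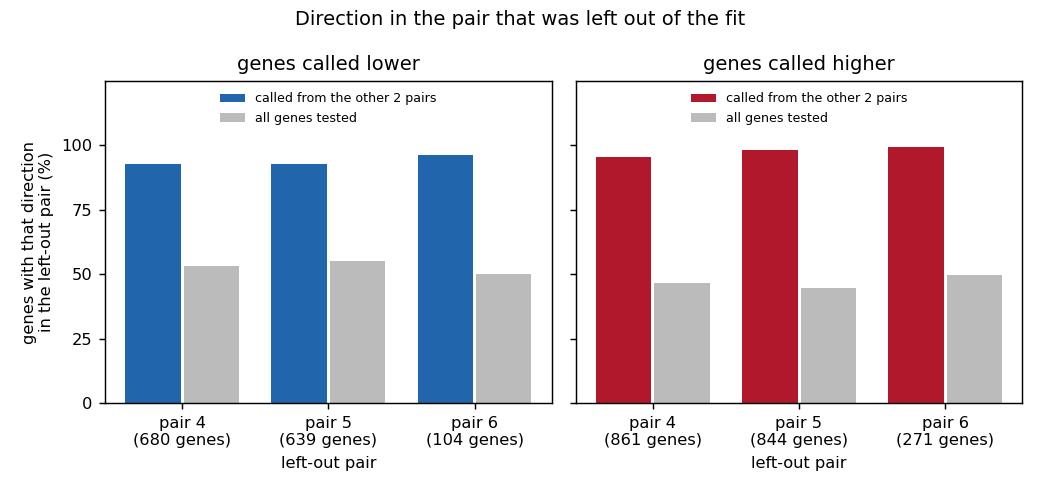
Share of genes (y axis, %) whose log2 ratio in a left-out pair has the direction called from the other pairs, for falls (left, blue) and rises (right, red), beside the share of all genes tested with that direction (grey). The coloured bars lie between 92.9% and 99.3% and the grey bars between 44.9% and 55.1%.

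The 12 largest falls among genes of at least 10 CPM included Ltbp2, Fmod, Fbn2, Scube3, Sparcl1 and Aoc3. Parentheses below hold the log2 fold change ± SE over the 3 pairs and the adjusted p, both from edgeR. Ltbp2 (ENSMUSG00000002020), a protein that joins fibrillin microfibrils, stood at 37.5, 17.7 and 70.4 CPM untreated and at 1.27, 0.865 and 4.44 CPM with IFNγ, a log2 fold change of −4.37 ± 0.20 (adjusted p = 0.000963). Fmod (ENSMUSG00000041559), the collagen-binding proteoglycan fibromodulin, went from 42.3, 2.69 and 8.34 to 1.305, 0.375 and 0.671 CPM (−4.06 ± 0.44, adjusted p = 0.00844). Fbn2 (ENSMUSG00000024598), fibrillin 2, went from 15.5, 46.4 and 28.5 to 0.445, 8.57 and 1.63 CPM (−3.63 ± 0.51, adjusted p = 0.0143). In these 3 genes no treated library reached the lowest untreated one, although untreated levels of Fmod differed widely between numbers. Scube3, a secreted glycoprotein of the cell surface, was even across cultures, at 15.7, 17.96 and 16.96 CPM untreated and 0.889, 2.94 and 1.37 CPM with IFNγ (−3.40 ± 0.32, adjusted p = 0.0059). Sparcl1, a relative of the matrix protein Sparc, went from 8.46, 3.57 and 46.4 to 0.326, 0.750 and 5.22 CPM (−3.26 ± 0.41, adjusted p = 0.0116), with treated library 6 above untreated library 5. Aoc3, an amine oxidase of the cell surface, went from 10.2, 3.04 and 22.3 to 0.741, 0.923 and 2.13 CPM (−3.02 ± 0.42, adjusted p = 0.0144), without overlap. Refits ended some of these calls, namely Fmod, Fbn2, Scube3, Sparcl1 and Aoc3 without pair 6 (adjusted p 0.0555 to 0.107), Fbn2 without pair 4 (adjusted p 0.0514), and Fbn2 with no low-count filter (adjusted p 0.0539).

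Other large falls lay in genes whose level differed widely between cultures. Slc5a7 (ENSMUSG00000023945), the choline transporter, stood at 78.5, 0.380 and 0.231 CPM untreated and 8.15, 0.0577 and 0.0292 CPM with IFNγ, so that pair 4 alone had more than a few counts (−3.20 ± 0.19, adjusted p = 0.00152). Perp, a membrane protein of desmosomes and a p53 target, was highest in number 5, at 2.64, 39.9 and 10.2 CPM untreated and 0.504, 4.64 and 0.613 CPM with IFNγ (−3.22 ± 0.30, adjusted p = 0.00583). Svop, a relative of a synaptic vesicle transporter, was also highest there, going from 13.7, 44.99 and 5.695 to 0.208, 8.39 and 0.467 CPM (−3.54 ± 0.62, adjusted p = 0.0239). Slc5a7 could not be tested without pair 4, so that its call rests on that pair. The groups overlapped for Slc5a7, Perp and Svop, since the treated library of the high culture stood above an untreated library of a low one. D0H4S114 (ENSMUSG00000042834), now named Nrep, had the smallest adjusted p of the 12 largest falls and no overlap, at 20.7, 16.2 and 54.2 CPM untreated and 2.64, 1.702 and 6.28 CPM with IFNγ (−3.11 ± 0.12, adjusted p = 0.000569). Calls lost in a refit were Svop without pair 6 (adjusted p 0.121), and Svop with no low-count filter (adjusted p 0.0848).

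Some falls had very small p values once cultures were paired, although cultures differed widely. Itm2a, a membrane protein first found in cartilage-forming cells, went from 71.5, 116 and 45.8 to 18.1, 30.2 and 10.7 CPM (−2.005 ± 0.09, adjusted p = 0.000686). Csrp2, a LIM protein of smooth muscle, went from 112, 214 and 147 to 34.3, 75.8 and 54.96 CPM (−1.54 ± 0.09, adjusted p = 0.00176). Neither overlapped, yet without the pairing their adjusted p was 0.184 and 0.171. Sytl1, a Rab27 effector of vesicle transport, stood at 4.38, 65.8 and 8.67 CPM untreated and 0.712, 13.2 and 1.58 CPM with IFNγ (−2.43 ± 0.13, adjusted p = 0.00113). Edil3, a secreted integrin ligand, stood at 2.96, 82.8 and 22.1 and 0.889, 24.6 and 6.71 CPM (−1.73 ± 0.10, adjusted p = 0.00153). Gpr116, an adhesion G protein-coupled receptor now named Adgrf5, stood at 17.4, 5.56 and 30.3 and 4.24, 1.01 and 6.16 CPM (−2.25 ± 0.14, adjusted p = 0.002). These 3 genes overlapped between groups because cultures differed by more than the fall, and each pair fell by a like amount. Itm2a, Csrp2, Sytl1, Edil3 and Gpr116 were chosen for a small p with the pairing among falls that did not pass without it. That their pairs fell by like amounts and that the calls failed without the pairing follows from how they were chosen. Lost in refits were Edil3 with all 9 libraries (adjusted p 0.102).

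**Figure D3:**
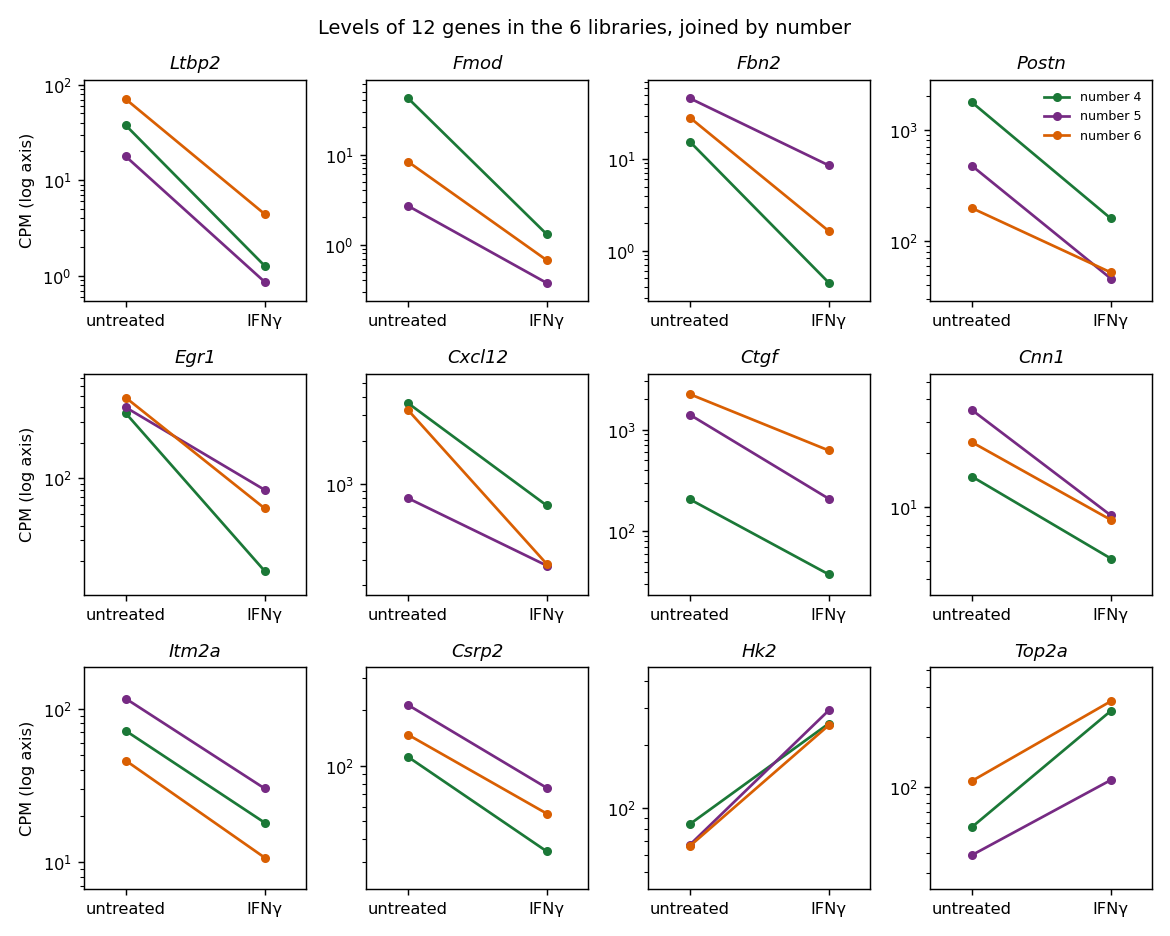
CPM on a log axis (y) in untreated and IFNγ-treated libraries (x) of 12 genes, with a line joining the libraries of number 4 (green), 5 (purple) and 6 (orange). Lines can be nearly parallel, as in Itm2a, a gene picked for its small p, with log2 ratios of −1.95, −1.92 and −2.05 in pairs 4, 5 and 6. Ctgf started further apart, at 206, 1403 and 2237 CPM, and ended at 37.6, 209 and 625 CPM. Its log2 ratios were −2.44, −2.74 and −1.84. Other lines are further from parallel. In Fmod the log2 ratios were −4.57, −1.87 and −2.92 in pairs 4, 5 and 6, and in Postn −3.45, −3.34 and −1.90.

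The 41 gene lists were chosen with earlier results of these data known, so their shares describe the members and test nothing on their own. Of the 905 list symbols tested, 163 fell and 131 rose. Of 24 collagen chains tested, 10 fell (41.7%, against 8.02% of all genes tested) and none rose, all 24 had a negative log2 fold change, and their median was −1.01 against −0.03 for all genes. Col12a1, which coats collagen fibrils, went from 1620.0, 642 and 1169 to 208, 163 and 221 CPM (−2.45 ± 0.21, adjusted p = 0.00485) and did not overlap. Col3a1, a fibril-forming chain of soft tissue, went from 1429, 248 and 227 to 189, 66.2 and 53.6 CPM (−2.30 ± 0.23, adjusted p = 0.00637), without overlap. Col2a1, the main cartilage collagen, was high in number 5, at 11.1, 199 and 28.2 CPM untreated and 1.72, 54.8 and 7.09 CPM with IFNγ (−2.12 ± 0.17, adjusted p = 0.00401). Col5a3, a regulator of fibril size, was low in number 5, at 202, 13.6 and 95.4 and 71.5, 4.04 and 45.1 CPM (−1.42 ± 0.14, adjusted p = 0.00627), and like Col2a1 it overlapped. Col1a1, the main bone and skin collagen, stood at 8646, 9463 and 3175 CPM untreated and 1499, 3436 and 1987 CPM with IFNγ and did not pass (−1.55 ± 0.38, adjusted p = 0.0523), with a smaller difference in pair 6 than in pair 4. It did pass with other scalings, with limma-voom, without robust estimation and with all 9 libraries (adjusted p 0.0338 to 0.0499). Of the calls in this group, refits lost Col5a3 with all 9 libraries (adjusted p 0.182).

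Genes of elastic fibres and microfibrils fell in 7 of 20 cases, with none rising and a median of −0.55. Of all genes tested, 8.02% fell and 8.61% rose. Beside Ltbp2 and Fbn2, Lox, the enzyme that crosslinks collagen and elastin, went from 969, 1128 and 1911 to 212, 436 and 488 CPM (−1.85 ± 0.19, adjusted p = 0.0063). Mfap2, whose promoter is shown above, was scarce, at 1.62, 1.84 and 1.31 CPM untreated and 0.0593, 0.317 and 0.146 CPM with IFNγ (−3.22 ± 0.44, adjusted p = 0.0116). Ltbp3, which anchors latent TGF-β, fell moderately from 514, 444 and 514 to 336, 283 and 299.9 CPM (−0.68 ± 0.10, adjusted p = 0.0131). None of these overlapped. Proteoglycans and hyaluronan enzymes fell in 9 of 18 cases, with none rising and a median of −0.62. Besides Fmod these included Prelp, a small leucine-rich proteoglycan, at 2.26, 1.404 and 1.33 and 0.178, 0.202 and 0.0876 CPM (−3.38 ± 0.35, adjusted p = 0.00632), and its relatives Aspn, at 3.45, 30.6 and 2.31 and 0.415, 2.86 and 0.701 CPM (−2.83 ± 0.36, adjusted p = 0.0108), and Omd, at 6.35, 10.2 and 9.08 and 0.860, 3.403 and 3.06 CPM (−1.94 ± 0.30, adjusted p = 0.0159). Aspn overlapped, being far higher in number 5 than in the other untreated cultures. In refits, the calls that did not pass were Lox, Mfap2, Ltbp3, Prelp and Omd without pair 6 (adjusted p 0.0532 to 0.0969), and Mfap2 and Prelp with all 9 libraries (adjusted p 0.0637 to 0.123).

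Matricellular genes, which code for secreted regulators of how cells meet the matrix, had the lowest median of the 41 lists, −1.06. Of 19 tested, 10 fell (52.6%) and 1 rose (5.26%), against 8.02% and 8.61% of all genes tested. Postn, periostin, went from 1747, 471 and 197 to 159, 46.002 and 52.2 CPM (−2.92 ± 0.36, adjusted p = 0.0106), without overlap despite a wide spread between cultures. Ctgf, now named Ccn2, went from 206, 1403 and 2237 to 37.6, 209 and 625 CPM (−2.35 ± 0.20, adjusted p = 0.00485), and its levels overlapped because untreated number 4 was low. The member that rose was Wisp2, now named Ccn5 and of the same family, at 109.5, 49.6 and 130.2 CPM untreated and 218, 82.6 and 273 CPM with IFNγ (0.93 ± 0.10, adjusted p = 0.00711). Matrix proteases and their inhibitors fell in 9 of 22 cases (40.9%), with none rising and a median of −0.61. Adamts12, a secreted metalloprotease, went from 13.8, 22.9 and 33.1 to 4.86, 10.1 and 12.1 CPM (−1.38 ± 0.12, adjusted p = 0.00454). Mmp2, gelatinase A, went from 1372, 221 and 328 to 572, 135 and 134 CPM (−1.09 ± 0.15, adjusted p = 0.0122), and Plau, urokinase, fell moderately from 62.3, 85.7 and 69.5 to 30.9, 51.9 and 41.5 CPM (−0.83 ± 0.10, adjusted p = 0.00821). Adamts12 and Plau did not overlap, and Mmp2 did. Some of these calls were lost in refits, which were Wisp2, Adamts12, Mmp2 and Plau without pair 6 (adjusted p 0.0514 to 0.0889), Postn without pair 4 (adjusted p 0.0587), and Mmp2 with all 9 libraries (adjusted p 0.0693).

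**Figure D4:**
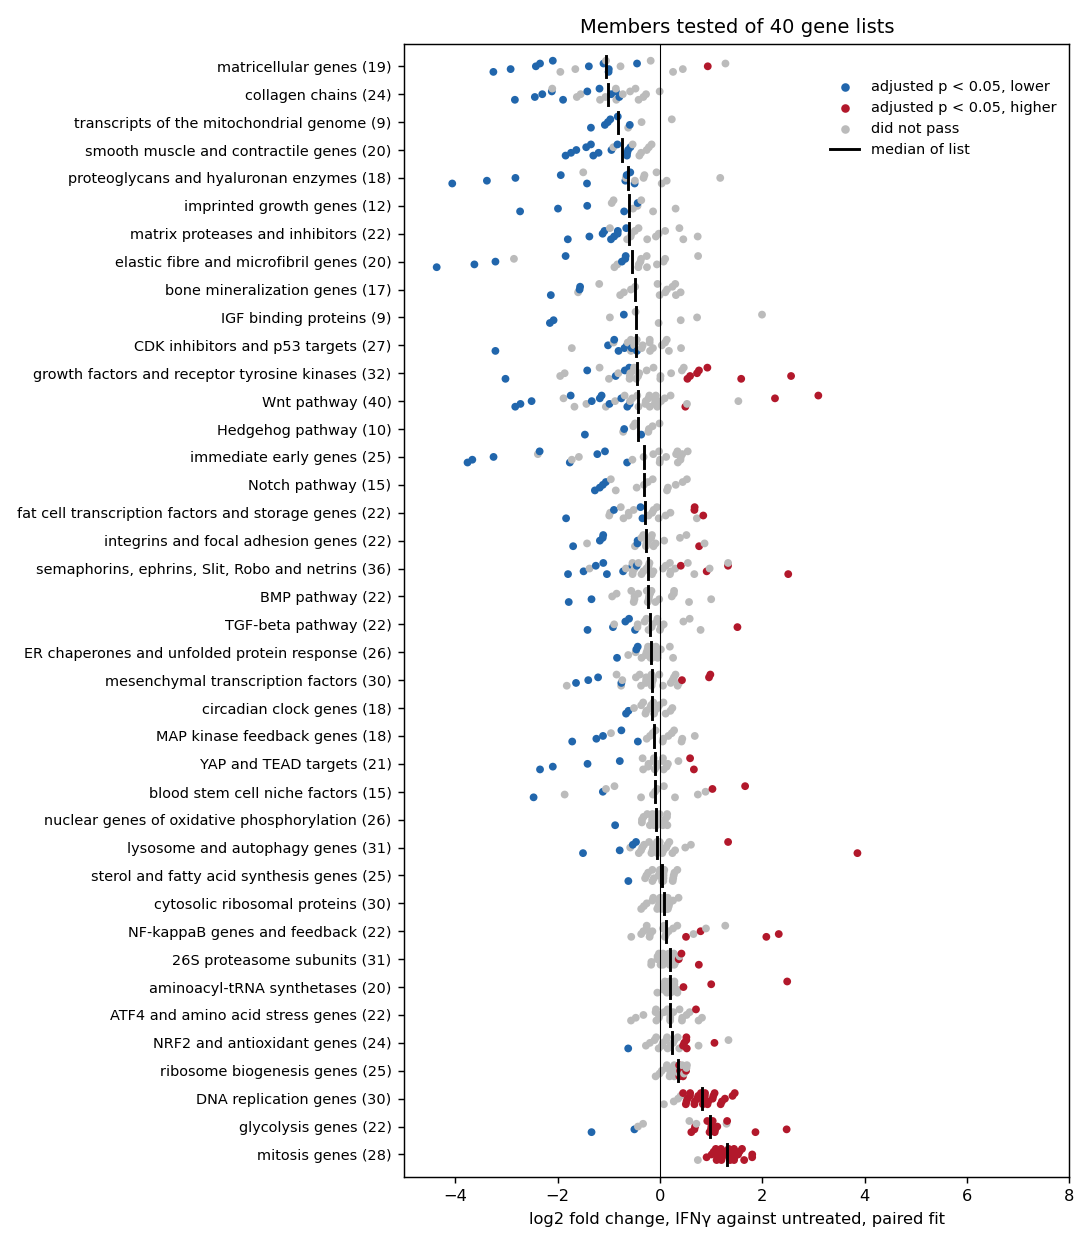
Log2 fold change of IFNγ against untreated in the paired fit (x axis) for each member tested of 40 gene lists (rows, with the number of members tested), coloured by direction where the adjusted p was under 0.05, with the median as a black bar. Matricellular genes and collagens lie lowest, at medians of −1.06 and −1.01, and mitosis genes highest, at 1.31.

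Of 22 integrin and focal adhesion genes, which hold the receptors for this matrix, 6 fell (27.3%) and 1 rose (4.55%), against 8.02% and 8.61% of all genes tested, with a median of −0.27. Itgb5, an integrin chain that binds vitronectin, was even across cultures at 279, 221 and 259 CPM untreated and 121, 105 and 122 CPM with IFNγ (−1.12 ± 0.09, adjusted p = 0.00357). Itga11, a collagen receptor chain, went from 299.6, 288 and 41.9 to 132, 122 and 22.4 CPM (−1.11 ± 0.10, adjusted p = 0.00546), with number 6 low in both states. Itga8, which binds nephronectin, went from 34.3, 14.2 and 11.9 to 7.15, 5.36 and 4.495 CPM (−1.70 ± 0.21, adjusted p = 0.00974). Refits ended some of these calls, namely Itga8 without pair 6 (adjusted p 0.0592), and Itga8 with all 9 libraries (adjusted p 0.0953).

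Contractile genes fell more often than any other group listed here of 20 or more members. All 20 had a negative log2 fold change, 13 fell (65.0%, against 8.02% of all genes tested) and the median was −0.74. Cnn1, calponin, went from 14.8, 34.9 and 23.1 to 5.19, 9.03 and 8.52 CPM (−1.64 ± 0.14, adjusted p = 0.00485). Myl9, whose CArG box is shown above, went from 348, 396 and 291 to 124, 171 and 155 CPM (−1.20 ± 0.13, adjusted p = 0.00762). Neither overlapped. Actg2, the gamma actin of smooth muscle, went from 57.8, 228 and 32.8 to 11.8, 78.8 and 9.84 CPM and overlapped (−1.85 ± 0.16, adjusted p = 0.00524). Markers of smooth muscle and pericytes moved with them, which are in part the same genes, from summed levels of 2076 to 4500 CPM untreated to 933 to 1529 CPM with IFNγ, and 6 of the 7 tested fell. Most of the sum was the smooth muscle actin Acta2, at 3341, 3256 and 1637 CPM untreated and 741, 1120 and 1073 CPM with IFNγ. Rgs5, a pericyte marker that fell, was high in number 5 alone. It stood at 0.551, 15.2 and 0.487 CPM untreated and 0.0296, 2.19 and 0.117 CPM with IFNγ. Cspg4 was not tested. Its level was 4.26 CPM in untreated and 2.37 CPM in treated number 4, and at most 0.263 CPM in numbers 5 and 6. Myh11, the heavy chain of mature smooth muscle, did not pass (adjusted p = 0.149 in edgeR) and did not exceed 0.848 CPM in any library. The part of cells of that type in the fall was not tested. Calls lost in a refit were Cnn1 with all 9 libraries (adjusted p 0.306).

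Immediate early genes, the transcription factors that growth signals switch on within minutes, fell in 8 of 25 cases (32.0%, against 8.02% of all genes). None rose and the median was −0.32. Egr1 (ENSMUSG00000038418) went from 354, 397 and 479 to 16.6, 80.1 and 55.9 CPM (−3.25 ± 0.43, adjusted p = 0.0131). Fos (ENSMUSG00000021250) went from 41.1, 28.9 and 45.8 to 1.48, 8.34 and 1.72 CPM (−3.67 ± 0.70, adjusted p = 0.03), with treated number 5 well above the other treated libraries. Ier2 stood at 138, 96.3 and 154 CPM untreated and 24.3, 22.3 and 28.3 CPM with IFNγ (−2.35 ± 0.11, adjusted p = 0.000963). Junb, a partner of Fos, fell from 126, 211 and 160.3 to 43.3, 116 and 89.4 CPM (−1.08 ± 0.16, adjusted p = 0.0148). None of these 4 overlapped between groups. Lost in refits were Egr1, Fos and Junb without pair 6 (adjusted p 0.0733 to 0.143), Fos without pair 4 (adjusted p 0.132), and Egr1 and Fos with no low-count filter (adjusted p 0.0525 to 0.111).

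Feedback genes of the MAP kinase pathway, which damp the same growth signals, fell in 5 of 18 cases (27.8%, against 8.02% of all genes). None rose and the median was −0.12. Spry1, an inhibitor of receptor tyrosine kinase signalling, went from 19.8, 12.2 and 21.7 to 8.01, 3.72 and 4.904 CPM (−1.72 ± 0.19, adjusted p = 0.00757). Its relative Spry4 went from 7.303, 12.2 and 23.4 to 3.47, 5.42 and 10.9 CPM (−1.11 ± 0.12, adjusted p = 0.00707). Dusp1, a MAP kinase phosphatase, went from 116, 264 and 205 to 57.5, 123 and 66.7 CPM (−1.24 ± 0.14, adjusted p = 0.008). Spry4 and Dusp1 overlapped, with the lowest untreated library in number 4 for both. Of the calls in this group, refits lost Spry1 and Spry4 without pair 6 (adjusted p 0.0532 to 0.0764), and Spry1 with all 9 libraries (adjusted p 0.0586).

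Of 22 TGF-β pathway genes 5 fell (22.7%) and 1 rose (4.55%), against 8.02% and 8.61% of all genes tested, with a median of −0.20. The ligand Tgfb2 fell from 53.4, 64.2 and 74.6 to 17.3, 28.03 and 27.6 CPM (−1.42 ± 0.11, adjusted p = 0.00362). Its receptor Tgfbr2 fell moderately from 475, 509 and 316 to 289, 244 and 159.8 CPM (−0.92 ± 0.11, adjusted p = 0.00896), and the signal carrier Smad3 from 138, 159 and 99.1 to 81.2, 107 and 61.3 CPM (−0.68 ± 0.08, adjusted p = 0.0096). The gene that rose was Inhbb, a subunit of activin and inhibin, which was higher in each treated library than in its partner, at 14.7, 67.6 and 66.6 CPM untreated and 36.4, 206 and 203 CPM with IFNγ (1.51 ± 0.10, adjusted p = 0.00214). Untreated numbers 5 and 6 of Inhbb stood above treated number 4, so that the groups overlapped, as they did for Smad3 and not for Tgfb2 or Tgfbr2. BMP pathway genes fell in 2 of 22 cases (9.09%, near the 8.02% of all genes), with none rising and a median of −0.23. Among them Gdf6, a BMP-type ligand, went from 16.9, 27.7 and 6.11 to 2.31, 13.7 and 2.01 CPM (−1.78 ± 0.38, adjusted p = 0.0379). In refits, the calls that did not pass were Tgfbr2, Smad3 and Gdf6 without pair 6 (adjusted p 0.0752 to 0.149), Gdf6 with all 9 libraries (adjusted p 0.196), and Gdf6 with no low-count filter (adjusted p 0.0681).

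Of 40 Wnt pathway genes tested, 11 fell (27.5%) and 3 rose (7.5%), against 8.02% and 8.61% of all genes tested, with a median of −0.43. The secreted inhibitor Wif1 went from 1.65, 4.48 and 4.16 to 0.445, 0.750 and 0.525 CPM (−2.51 ± 0.29, adjusted p = 0.00798). Lef1, a transcription factor that acts with β-catenin, went from 1.48, 2.28 and 4.64 to 0.237, 0.490 and 0.379 CPM (−2.83 ± 0.35, adjusted p = 0.00954), and its relative Tcf7l1 fell moderately from 43.8, 33.7 and 39.1 to 25.9, 21.7 and 21.3 CPM (−0.76 ± 0.10, adjusted p = 0.00974). None of the 3 overlapped. The ligand Wnt2 rose, from 0.0580, 0.205 and 0.359 to 0.119, 2.22 and 3.42 CPM (3.09 ± 0.41, adjusted p = 0.0112), at few counts in the untreated libraries and hardly any in pair 4. Some of these calls were lost in refits, which were Wif1, Lef1 and Tcf7l1 without pair 6 (adjusted p 0.0628 to 0.0774).

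Notch genes fell in 4 of 15 cases (26.7%, against 8.02% of all genes tested), with none rising and a median of −0.31. The receptor Notch3 went from 384, 773 and 188 to 163, 425 and 89.3 CPM (−1.06 ± 0.11, adjusted p = 0.00694), the ligand Jag1 from 49.6, 12.96 and 13.7 to 15.95, 7.56 and 7.33 CPM (−1.12 ± 0.19, adjusted p = 0.0213) and the target Hes1 from 13.3, 28.3 and 30.96 to 5.63, 9.03 and 16.1 CPM (−1.27 ± 0.16, adjusted p = 0.00982). All 3 overlapped between groups. Hedgehog genes fell in 3 of 10 cases (30.0%), with none rising, all 10 negative and a median of −0.43. Gli2, a transcription factor of the pathway, went from 2.898, 8.6001 and 14.9 to 0.949, 4.499 and 3.999 CPM (−1.47 ± 0.24, adjusted p = 0.0171), and Smo, the signalling membrane protein, fell by a small amount from 146, 116 and 116 to 119.99, 91.02 and 83.2 CPM (−0.37 ± 0.08, adjusted p = 0.0424). Refits ended some of these calls, namely Notch3, Jag1, Hes1, Gli2 and Smo without pair 6 (adjusted p 0.0522 to 0.218), Smo without pair 4 (adjusted p 0.0772), Smo without pair 5 (adjusted p 0.126), Smo with all 9 libraries (adjusted p 0.0531), and Smo with no low-count filter (adjusted p 0.0512).

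Of 32 growth factors and their receptors 5 fell (15.6%) and 7 rose (21.9%), against 8.02% and 8.61% of all genes tested, with a median of −0.44. Fgf10, a ligand with roles in fat and lung growth, rose from 0.319, 1.52 and 3.08 to 1.45, 14.2 and 13.7 CPM (2.56 ± 0.28, adjusted p = 0.00746). Met, the receptor of hepatocyte growth factor, rose moderately from 61.001, 59.2 and 29.9 to 109.6, 88.4 and 50.2 CPM (0.72 ± 0.09, adjusted p = 0.0096), and the receptor Igf1r from 63.3, 73.2 and 37.4 to 90.7, 128 and 72.9 CPM (0.76 ± 0.11, adjusted p = 0.0135). The ligand Igf2 fell, from 151, 80.8 and 277 to 48.2, 45.02 and 81.6 CPM (−1.42 ± 0.20, adjusted p = 0.0142), and 3 of 9 IGF binding proteins fell with none rising. Igfbp4 went from 80.5, 60.2 and 108 to 31.3, 20.7 and 9.87 CPM (−2.08 ± 0.45, adjusted p = 0.0398), with its lowest level in treated number 6. Among imprinted growth genes, of which Igf2 is one, 5 of 12 fell with none rising and a median of −0.61. Calls lost in a refit were Met, Igf1r and Igf2 without pair 6 (adjusted p 0.0764 to 0.0825), Igf2 and Igfbp4 without pair 4 (adjusted p 0.0612 to 0.0982), Igfbp4 without pair 5 (adjusted p 0.0734), Igf2 and Igfbp4 with all 9 libraries (adjusted p 0.0694 to 0.384), and Igfbp4 with no low-count filter (adjusted p 0.14).

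Of 36 guidance molecules, which steer cells and axons, 8 fell (22.2%) and 4 rose (11.1%), against 8.02% and 8.61% of all genes tested, with a median of −0.24. The secreted repellent Slit2 rose in every pair, from 52.8, 111 and 15.9 to 273, 559.96 and 113 CPM (2.51 ± 0.13, adjusted p = 0.0012), without overlap. Efnb1, an ephrin of the membrane, went from 66.2, 180.2 and 77.8 to 22.4, 81.2 and 37.3 CPM (−1.26 ± 0.12, adjusted p = 0.0059) and overlapped. Ephb3, a receptor for such ephrins, went from 26.7, 26.9 and 16.7 to 13.3, 13.7 and 7.59 CPM (−1.04 ± 0.10, adjusted p = 0.00596), without overlap. Lost in refits were Ephb3 without pair 6 (adjusted p 0.0545).

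Of 15 niche factors for blood stem cells tested, 2 fell and 2 rose, 13.3% each way beside 8.02% and 8.61% of all genes, with a median of −0.10. A share this near the background is no result about the group. Cxcl12, the chemokine that keeps stem cells in the marrow, stood at 3640.4, 802 and 3263 CPM untreated and 714, 275 and 282 CPM with IFNγ (−2.47 ± 0.41, adjusted p = 0.021), and the fall was smallest in pair 5, which began lowest. Kitl, the ligand of the receptor Kit, rose from 27.5, 51.7 and 106 to 136, 170.5 and 208 CPM (1.66 ± 0.26, adjusted p = 0.0192). Neither gene overlapped. Of the calls in this group, refits lost Cxcl12 without pair 6 (adjusted p 0.0532), Cxcl12 without pair 4 (adjusted p 0.107), Kitl without pair 5 (adjusted p 0.0639), Kitl with all 9 libraries (adjusted p 0.13), and Cxcl12 with no low-count filter (adjusted p 0.0647).

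The receptor itself gave 1 call. Ifngr2 fell, from 120.2, 155 and 120.4 to 52.4, 85.6 and 59.2 CPM (−1.02 ± 0.10, adjusted p = 0.00585), without overlap. Ifngr1 stood at 61.001, 75.4 and 142 CPM untreated and 44.9, 71.2 and 70.99 CPM with IFNγ and did not pass (−0.51 ± 0.18, adjusted p = 0.123). The kinase Jak1 lay just inside the threshold, at 192, 194 and 221 and 239, 278 and 274 CPM (0.38 ± 0.09, adjusted p = 0.0497). In refits, the calls that did not pass were Ifngr2 and Jak1 without pair 6 (adjusted p 0.0511 to 0.149), Jak1 without pair 4 (adjusted p 0.105), Jak1 without pair 5 (adjusted p 0.199), Jak1 with all 9 libraries (adjusted p 0.0808), Jak1 with DESeq2 size factors (adjusted p 0.0509), Jak1 with upper-quartile scaling (adjusted p 0.0617), and Jak1 without robust estimation (adjusted p 0.0531).

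The moderate falls with the smallest p were Mical1, S100a16, Dos (now Cbarp), Serinc5, Unc119, Mxd4, Tm7sf3 and Kdm5b, with log2 fold changes from −0.98 ± 0.09 to −0.81 ± 0.08. Mxd4, which competes with Myc for its partner Max, went from 174, 209.8 and 209 to 80.4, 118 and 109 CPM (−0.96 ± 0.09, adjusted p = 0.0059). Kdm5b, a histone demethylase, went from 81.9, 92.8 and 70.04 to 43.3, 53.99 and 41.9 CPM (−0.81 ± 0.08, adjusted p = 0.00632). Of the 8 genes S100a16 overlapped, at 39.1, 28.3 and 106 CPM untreated and 19.3, 14.6 and 60.8 CPM with IFNγ (−0.92 ± 0.09, adjusted p = 0.0059), since number 6 was high in both states. Without the pairing the 8 adjusted p values were 0.122 for Kdm5b, 0.0999 for Mxd4, 0.74 for S100a16 and 0.0785 to 0.308 for the others. Some of these calls were lost in refits, which were Mxd4, Kdm5b, S100a16, Mical1, Dos, Serinc5 and Tm7sf3 without pair 6 (adjusted p 0.0505 to 0.0559), and S100a16 and Unc119 with all 9 libraries (adjusted p 0.064 to 0.15).

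Moderate rises with the smallest p were Noc4l, B4galt5, Hells, Usp1, Dek, Tmed8, Fam26e (now Calhm5) and Styk1. Noc4l, a factor of small ribosomal subunit assembly, went from 28.1, 31.5 and 31.6 to 52.95, 57.6 and 63.3 CPM (0.93 ± 0.08, adjusted p = 0.00524). Hells, a chromatin remodeller of dividing cells, went from 91.1, 43.4 and 85.04 to 195, 80.7 and 158 CPM (0.96 ± 0.09, adjusted p = 0.00546) and overlapped. Usp1, a deubiquitinase of DNA repair, went from 54.1, 30.8 and 46.2 to 97.02, 54.2 and 87.9 CPM (0.86 ± 0.08, adjusted p = 0.00546), and Dek, a chromatin protein, from 84.7, 53.5 and 91.6 to 148, 95.5 and 160.1 CPM (0.82 ± 0.08, adjusted p = 0.0058). B4galt5, a galactosyltransferase of glycolipid synthesis, went from 85.5, 59.2 and 68.6 to 156, 127 and 134 CPM (0.98 ± 0.09, adjusted p = 0.00526). Usp1, Dek, Noc4l and B4galt5 did not overlap. Refits ended some of these calls, namely Tmed8 without pair 6 (adjusted p 0.0532).

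**Figure D5:**
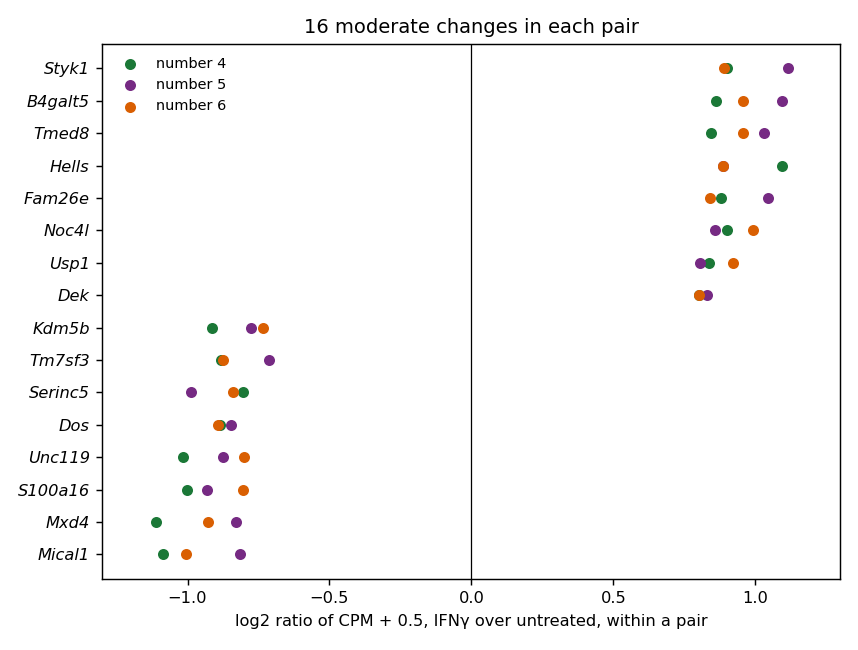
Log2 ratio of CPM + 0.5, IFNγ over untreated (x axis), within pair 4 (green), 5 (purple) and 6 (orange) for the 8 moderate falls and the 8 moderate rises with the smallest p. That the 3 points of a gene lie on one side of 0 and close together follows from how the genes were chosen.

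The pairing brought cell division genes past the threshold almost as a whole. Of 30 DNA replication genes, 26 rose (86.7%, against 8.61% of all genes tested) and none fell, with a median of 0.82 and all 30 positive. Of 28 mitosis genes, 27 rose (96.4%) and none fell, with a median of 1.31 and all 28 positive. Without the pairing none of either list passed in edgeR, where 14 replication and 22 mitosis genes had an unadjusted p under 0.05. DESeq2 with the pairing called 26 and 28. Lig1, DNA ligase, went from 58.7, 35.5 and 65.96 to 116, 68.99 and 108 CPM (0.88 ± 0.09, adjusted p = 0.00694). Tpx2, a spindle protein, went from 48.2, 34.4 and 57.8 to 102, 87.5 and 119 CPM (1.16 ± 0.10, adjusted p = 0.00418). Top2a, whose CHR elements are shown above, went from 57.1, 38.7 and 108 to 285, 109 and 326 CPM (1.802 ± 0.18, adjusted p = 0.00681). None of these overlapped, and number 5 was lowest in both states for all 3. Of 27 CDK inhibitors and p53 targets, 8 fell (29.6%, against 8.02% of all genes tested) and none rose, with a median of −0.48. Plk2, a stress-induced kinase, went from 311, 355 and 199.8 to 137, 179 and 109 CPM (−1.02 ± 0.10, adjusted p = 0.0059), and Mdm2, the p53 ubiquitin ligase, fell moderately from 485, 1524 and 654 to 276, 756 and 428 CPM (−0.81 ± 0.12, adjusted p = 0.0147). Calls lost in a refit were Top2a and Mdm2 without pair 6 (adjusted p 0.0532 to 0.0745), and Mdm2 with all 9 libraries (adjusted p 0.0622).

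Glycolysis genes rose in 15 of 22 cases (68.2%) and fell in 2 (9.09%), against 8.61% and 8.02% of all genes tested, with a median of 0.98. Hk2, the hexokinase that traps glucose, went from 84.2, 67.2 and 66.3 to 252, 291 and 248 CPM (1.87 ± 0.13, adjusted p = 0.00238). Slc16a3, a lactate exporter, went from 11.8, 15.6 and 0.975 to 76.1, 71.4 and 5.896 CPM (2.48 ± 0.14, adjusted p = 0.0013), with number 6 low in both states. Ldhb, the lactate dehydrogenase chain of oxidative tissues, fell from 68.9, 156 and 74.3 to 27.6, 75.05 and 23.6 CPM (−1.34 ± 0.13, adjusted p = 0.0059). Of 26 nuclear genes of oxidative phosphorylation, 1 fell and none rose, with a median of −0.08, and that gene was Ndufa4, from 122, 216 and 197 to 56.2, 152 and 97.5 CPM (−0.88 ± 0.14, adjusted p = 0.0176). Transcripts of the mitochondrial genome fell in 6 of 9 cases (66.7%) with none rising and a median of −0.83. mt-Nd4, a chain of complex I, went from 676, 938 and 738 to 304, 308 and 302 CPM (−1.35 ± 0.13, adjusted p = 0.0058), with the treated libraries almost level. The mitochondrial share of all counts was 0.930, 1.38 and 1.17% untreated and 0.706, 0.702 and 0.660% with IFNγ, a measure also read as a sign of RNA and cell quality, and its part in these falls was not tested. Lost in refits were Ndufa4 and mt-Nd4 without pair 6 (adjusted p 0.0532 to 0.114), and Ndufa4 without pair 4 (adjusted p 0.0516).

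The shares of fat and bone genes called lower were above the 8.02% of all genes tested. The lists were chosen with earlier results known, however, and 163 of the 905 list symbols tested fell. These shares are therefore no result about fat or bone genes as groups. The choice of lists limits the shares of the other lists in the same way. Of 22 fat cell transcription factors and storage genes, 4 fell (18.2%) and 3 rose (13.6%, against 8.61% of all genes), with a median of −0.28. Zfp423, a factor of preadipocyte commitment, went from 1.39, 11.3 and 10.1 to 0.148, 4.24 and 2.98 CPM (−1.84 ± 0.31, adjusted p = 0.0191), and Pnpla2, the main triglyceride lipase, rose moderately from 17.9, 26.1 and 28.96 to 27.7, 42.9 and 45.97 CPM (0.67 ± 0.09, adjusted p = 0.0103). Of 17 bone mineralization genes, 3 fell (17.6%) and none rose, with a median of −0.49. Enpp1, which makes pyrophosphate, went from 12.5, 30.7 and 34.3 to 6.17, 6.86 and 12.2 CPM (−1.56 ± 0.23, adjusted p = 0.0148), and Mgp, an inhibitor of mineralization, from 429.6, 374 and 924 to 146, 231 and 168 CPM (−1.57 ± 0.35, adjusted p = 0.0419). Among mesenchymal transcription factors 4 of 30 fell (13.3%) and 3 rose (10.0%), beside 8.02% and 8.61% of all genes tested. Tbx2 went from 1.74, 14.04 and 3.21 to 0.445, 5.22 and 0.992 CPM (−1.64 ± 0.19, adjusted p = 0.00865), and Sox9, the cartilage factor, rose from 24.5, 13.2 and 15.6 to 56.9, 21.3 and 31.8 CPM (0.98 ± 0.13, adjusted p = 0.0107). Of the calls in this group, refits lost Zfp423, Pnpla2, Enpp1, Mgp, Tbx2 and Sox9 without pair 6 (adjusted p 0.0663 to 0.121), Mgp without pair 4 (adjusted p 0.175), Enpp1 with all 9 libraries (adjusted p 0.091), and Mgp with no low-count filter (adjusted p 0.123).

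None of 30 cytosolic ribosomal protein genes passed in edgeR in either direction (median 0.08), where 1 had an unadjusted p under 0.05 and DESeq2 called 1. Of 25 sterol and fatty acid synthesis genes 1 fell (4.0%), and of 26 ER chaperones and unfolded protein response genes 3 fell (11.5%). Of 18 circadian clock genes 2 fell (11.1%), beside 8.02% of all genes tested. These lists had medians of 0.04, −0.18 and −0.15, with none of their members rising. Ribosome biogenesis genes rose in 6 of 25 cases (24.0%, against 8.61% of all genes tested) with none falling and a median of 0.35. Of 31 lysosome and autophagy genes, 4 fell (12.9%) and 2 rose (6.45%), near the 8.02% and 8.61% of all genes tested. Among them Ctss, whose ISRE is shown above, rose from 0.203, 0.0293 and 0.103 to 1.84, 0.461 and 2.69 CPM (3.86 ± 0.42, adjusted p = 0.00726). Ctsf, another cathepsin, fell from 98.1, 159.6 and 46.1 to 31.9, 72.1 and 13.5 CPM (−1.51 ± 0.14, adjusted p = 0.00576). Ctss was near the limit of detection untreated. In refits, the calls that did not pass were Ctss without pair 6 (adjusted p 0.0609).

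Not all genes answered alike in the 3 pairs. The widest ranges of the log2 ratio among well expressed genes were in Tubb3, Abi3bp, Adamts1, Iigp1, Smoc1 and Pacsin1. Adamts1, a secreted metalloprotease, was lower in pairs 4 and 6 and higher in pair 5, at 538, 79.8 and 317 CPM untreated and 104, 176 and 112 CPM with IFNγ (−0.98 ± 0.73, adjusted p = 0.404). Without pair 5 it passed as lower (adjusted p = 0.0149). Abi3bp, a matrix protein, was at 196, 121 and 142 and 23.7, 194 and 102 CPM, lower in pairs 4 and 6 and higher in pair 5, and did not pass (−0.88 ± 0.76, adjusted p = 0.469). Smoc1, a matricellular protein, was at 2.17, 3.31 and 27.2 and 1.305, 26.5 and 56.2 CPM, lower in pair 4 and higher in pairs 5 and 6, and did not pass (1.28 ± 0.67, adjusted p = 0.251). Tubb3, a tubulin of neurons, rose in every pair but unevenly, from 16.2, 3.31 and 1.64 to 103, 143 and 187 CPM (4.85 ± 0.89, adjusted p = 0.027). Pacsin1, an endocytosis protein of neurons, rose from 0.319, 0.585 and 0.231 to 3.499, 53.1 and 18.9 CPM (5.78 ± 0.57, adjusted p = 0.00718). Across all genes tested the log2 ratios of 2 pairs correlated at Pearson r of 0.75 (pairs 4 and 5), 0.78 (4 and 6) and 0.81 (5 and 6) and at Spearman rho of 0.57, 0.61 and 0.63, as a description over genes that share the libraries. Some of these calls were lost in refits, which were Tubb3, Pacsin1 and Iigp1 without pair 6 (adjusted p 0.0645 to 0.0954), Iigp1 without pair 4 (adjusted p 0.0587), Tubb3 without pair 5 (adjusted p 0.0866), and Tubb3 and Iigp1 with no low-count filter (adjusted p 0.0626 to 0.098).

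At the threshold, Foxred1, Ckb and Jak1 were the last to pass and Nat15, Chd1 and Gmip the first that did not. Ckb, brain creatine kinase, stood at 16.4, 9.51 and 9.98 CPM untreated and 11.3, 2.16 and 2.36 CPM with IFNγ (−1.54 ± 0.37, adjusted p = 0.0497). Nat15, now named Naa60, an acetyltransferase, stood at 47.1, 43.3 and 35.2 and 33.03, 31.2 and 30.3 CPM (−0.40 ± 0.10, adjusted p = 0.0501). The groups of Nat15, Chd1 and Gmip did not overlap, while those of Ckb did. In refits Nat15 passed in 4 (adjusted p 0.0233 to 0.0456), Chd1 in 5 (0.021 to 0.0459) and Gmip in 3 (0.0439 to 0.0486). Refits ended some of these calls, namely Ckb and Foxred1 without pair 6 (adjusted p 0.183 to 0.224), Ckb and Foxred1 without pair 5 (adjusted p 0.142 to 0.154), Ckb and Foxred1 with all 9 libraries (adjusted p 0.0629 to 0.105), Ckb with no low-count filter (adjusted p 0.0717), Ckb and Foxred1 with DESeq2 size factors (adjusted p 0.0506 to 0.053), Foxred1 with upper-quartile scaling (adjusted p 0.0585), Foxred1 without robust estimation (adjusted p 0.05), and Ckb with limma-voom (adjusted p 0.0527).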

How the data were processed

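Per the labels' protocols, poly(A) RNA went through a directional library kit and was sequenced as single reads of 75 bases. The deposited values are whole-number read counts per Ensembl gene, not normalized by the authors, with 1 column per library, and the same table gives exonic lengths. CASAVA 1.8.0 and bedtools 2.11 are named in the submitters' processing notes, with mm9 as the build. The sources used here do not give the aligner, the counter or the use of strand, so reads of near-identical genes (such as the Gbp and collagen families) and of overlapping or antisense genes cannot be assigned with certainty. Several gene names are older symbols, whose present names were taken by Ensembl identifier from GENCODE. No coordinate of the counted genes was used; promoters came from RefSeq in another build and were matched by gene.

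The analysis used edgeR 4.0.16 in R 4.3.3. The filter filterByExpr, applied by group, left 14705 genes, libraries were scaled with TMM, and a robust quasi-likelihood model with a term for the number and one for IFNγ was fitted to the 6 libraries, leaving 2 residual degrees of freedom per gene. The F test was two-sided, with Benjamini-Hochberg adjustment over all genes tested and a threshold of 0.05. SE were taken as the absolute log2 fold change divided by the root of F. CPM use the deposited totals times the TMM factors, and log2 ratios within pairs use CPM + 0.5. The 3 pairs alone cannot give an exact two-sided p below 0.25 for a single gene, so each call leans on the spread shared over genes. The fit was tested on simulated data.

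Whether the numbers pair the libraries was decided before calls were compared. They come from the titles only. Over genes, deviations from group means correlated at 0.783, 0.769 and 0.784 for the same number and at −0.460 to −0.273 for different numbers. The deviations of a group sum to 0 for each gene, so negative values for different numbers follow from positive ones for the same number. No 2 libraries of a group agreed within sampling noise. The biological coefficient of variation was 0.153 with the pairing and 0.402 without it.

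Members and gene lists were chosen with earlier results of these data known. The 41 lists held 972 symbols, of which 966 matched and 905 were tested. Shh, Disp1, Tcf21, Hmgcs1, mt-Nd4l and mt-Atp8 were not matched. The rule for naming took the 12 largest falls and 6 largest rises, the 8 moderate falls and rises and the 8 falls seen only with the pairing with the smallest p, all averaging 10 CPM or more in the higher group, with 1 direction in all pairs. It also took up to 4 members past the threshold of each list with at least 1 CPM, the 6 genes with the widest range between pairs, 3 genes on each side of the threshold and 10 fixed genes. Predicted genes were left out. Alternatives were the fit without the pairing, other scalings (DESeq2 size factors, upper quartile), no low-count filter, DESeq2 1.42.0, limma-voom (limma 3.58.1), no robust estimation, all 9 libraries, and leaving out each pair. Floors of 3 counts cover counting error alone: the reads carry no molecular identifiers, so they are not independent molecules.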

Additional observations from a re-analysis of the deposited data

How the results depend on the processing

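Without the replicate block, 9 genes were lower and 169 higher, 0 and 7 of them by less than 1 on the log2 scale, and 5 and 13 list members were lower and higher against 163 and 131 with it. At an unadjusted p under 0.05 the fit without the block had 617 lower and 1080 higher genes. Leaving out 1 pair gave 104 to 685 lower and 271 to 877 higher genes, 7 to 327 and 14 to 337 of them moderate, and 35 to 136 and 29 to 108 list members. The lowest count came without pair 6 each time. With all 9 libraries and the block, 645 genes were lower, 396 of them moderately, and 97 list members were lower. DESeq2 called 1091 moderate falls. All other counts stayed within 1.5 times of those reported. Of the lower calls, 1164 were shared with DESeq2 size factors, 1136 with DESeq2 and 610 with all 9 libraries. Abi3bp, which never passed, ranged from −1.75 to 0.10 with a pair left out and changed sign without pair 4 (adjusted p = 0.879). The cause of these shifts was not tested. Each fit with a pair left out had the same number of samples, fewer than the main fit. Depth limits the genes with a few counts in 1 group, such as Ctss, Wnt2 and Mfap2.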

Other observations

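Of 20 aminoacyl-tRNA synthetases 3 rose (15.0%, against 8.61% of all genes tested) and none fell, with a median of 0.20 against −0.03 for all genes tested. Wars, the tryptophan enzyme and a known interferon target, went from 194, 74.9 and 78.4 to 712, 459 and 612 CPM (2.49 ± 0.23, adjusted p = 0.0059), and Kars, the lysine enzyme, from 157, 174 and 188 to 270.2, 355 and 428 CPM (1.000 ± 0.11, adjusted p = 0.00764). Neither overlapped between groups. Of 31 subunits of the 26S proteasome 3 rose (9.68%, near that background) and none fell, with a median of 0.19, among them Psma5, from 54.6, 71.8 and 72.01 to 88.3, 116 and 133 CPM (0.76 ± 0.09, adjusted p = 0.00773). Calls lost in a refit were Kars and Psma5 without pair 6 (adjusted p 0.0545 to 0.0587).

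Antioxidant genes of the NRF2 group rose in 6 of 24 cases and fell in 1, with a median of 0.23. Of all genes tested, 8.61% rose and 8.02% fell. Gclm, which helps make glutathione, went from 41.8, 39.8 and 45.998 to 96.2, 74.4 and 97.5 CPM (1.06 ± 0.09, adjusted p = 0.00485), and the gene that fell was Gpx1, a glutathione peroxidase, from 156, 193 and 146 to 90.9, 134 and 99.2 CPM (−0.62 ± 0.09, adjusted p = 0.0143). Of 22 genes of NF-κB and its feedback 4 rose (18.2%, against the same 8.61%) and none fell, with a median of 0.11. The chemokine Ccl2 went from 35.5, 16.8 and 87.05 to 146, 169.7 and 163 CPM (2.08 ± 0.48, adjusted p = 0.0458), with treated libraries alike and untreated ones far apart. Bcl3, a nuclear partner of NF-κB, went from 3.48, 0.176 and 0.795 to 10.5, 1.903 and 4.904 CPM (2.32 ± 0.35, adjusted p = 0.0154). Lost in refits were Gpx1, Ccl2 and Bcl3 without pair 6 (adjusted p 0.0572 to 0.106), Ccl2 without pair 4 (adjusted p 0.186), Ccl2 without pair 5 (adjusted p 0.0577), Gpx1 and Ccl2 with all 9 libraries (adjusted p 0.0511 to 0.116), and Ccl2 with no low-count filter (adjusted p 0.153).

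Genes that changed were somewhat longer in exonic length than all genes tested, at a median of 3710 bases for falls and 3989 for rises against 3369. The fall was largest in pair 4 for 507 of the 1180 genes, in pair 5 for 341 and in pair 6 for 332.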
